A study of Mus musculus with 12 samples.

Results

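HOX genes encode homeodomain transcription factors that lie in 4 clusters, Hoxa to Hoxd, and carry paralog numbers that follow their order along a cluster. A gene was taken as a member when a row of the array table was annotated to exactly 1 symbol of the form Hoxa, Hoxb, Hoxc or Hoxd followed by a number. This gave 33 genes of the 30761 genes with such a row. The members were 8 Hoxa, 9 Hoxb, 9 Hoxc and 7 Hoxd genes, of which 6 were anterior (paralogs 1 to 3), 12 central (4 to 8) and 15 posterior (9 to 13). No member had more than 1 row, so no choice between rows was needed. Hoxa7, Hoxa9, Hoxb4, Hoxd3 and Hoxd4 were named only on 4 rows that carry several symbols and are given no value.

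The 12 arrays (Affymetrix Mouse Transcriptome Array 1.0) measured HoxB8-ER cells, mouse bone marrow progenitors from C57BL/6 animals held as dividing promyelocyte-like cells by a HOXB8 and estrogen receptor fusion. All 6 groups, controls included, carried that fusion, and each had 2 arrays. The groups were neutrophils from Ezh2-/- cells after 6 days without estradiol, neutrophils from wild-type littermate cells made in the same way, undifferentiated Ezh2-/- cells in 0.5 µM estradiol, undifferentiated wild-type cells in 0.5 µM estradiol, wild-type neutrophils given the EZH2 inhibitor GSK343, and wild-type neutrophils given vehicle. GSK343 is given as 0.5 µM for 9 days in the sample labels and as 1 µM in the series text, so the dose is not settled. The labels do not say how Ezh2 was deleted, how many lines were made or whether the arrays of a group came from separate cultures. Genotype and cell line therefore cannot be told apart, and the p-values reflect array-to-array spread, possibly technical.

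As background, EZH2 is the catalytic subunit of Polycomb repressive complex 2, which places the repressive mark H3K27me3, and HOX clusters are among its best known targets. MLL-family complexes maintain HOX expression against this repression, and HOX proteins bind DNA together with TALE cofactors of the PBX and MEIS families. In blood, Hoxa and some Hoxb genes are expressed in stem and progenitor cells and are lowered as myeloid cells mature. Enforced Hoxb8 blocks myeloid maturation, which is the property these cells make use of. In bulk RNA, fewer cells of a type and less RNA per cell cannot be told apart.

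The members that rose above array background are shown first by the DNA around their transcription starts. RefSeq promoters (GRCm38.p6, 250 bases before to 50 after the start) were found for 17 of the 33 members, 19 promoters in all. Of the 5 genes above background on both arrays of a group, 4 had one. They are printed 5′ to 3′ on the gene's strand with every CpG dinucleotide in capitals, because CpG-rich DNA is where Polycomb complexes are typically found: Hoxa5 at chr6:52204538-52204837 (minus strand), Hoxa6 at chr6:52208623-52208922 (minus strand), Hoxb8 at chr11:96281655-96281954 (plus strand) and Hoxc4 at chr15:103034145-103034444 (plus strand).
Hoxa5: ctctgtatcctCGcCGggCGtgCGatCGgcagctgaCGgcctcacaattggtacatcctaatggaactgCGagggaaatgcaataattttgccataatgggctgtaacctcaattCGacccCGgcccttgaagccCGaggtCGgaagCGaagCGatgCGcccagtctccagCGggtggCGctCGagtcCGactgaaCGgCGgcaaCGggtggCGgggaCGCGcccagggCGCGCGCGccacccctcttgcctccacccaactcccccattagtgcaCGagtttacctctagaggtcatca
Hoxa6: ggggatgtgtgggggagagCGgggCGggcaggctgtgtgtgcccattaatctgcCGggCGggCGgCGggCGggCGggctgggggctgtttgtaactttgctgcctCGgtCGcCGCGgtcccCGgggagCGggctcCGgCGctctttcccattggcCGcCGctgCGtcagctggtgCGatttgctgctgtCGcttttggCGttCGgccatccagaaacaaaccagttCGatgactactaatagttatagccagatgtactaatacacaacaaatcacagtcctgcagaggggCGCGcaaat
Hoxb8: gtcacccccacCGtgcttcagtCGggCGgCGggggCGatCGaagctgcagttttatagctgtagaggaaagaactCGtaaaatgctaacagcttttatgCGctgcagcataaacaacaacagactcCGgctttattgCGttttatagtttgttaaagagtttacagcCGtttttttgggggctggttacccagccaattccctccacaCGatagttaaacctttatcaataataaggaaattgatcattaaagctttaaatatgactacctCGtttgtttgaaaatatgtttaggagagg
Hoxc4: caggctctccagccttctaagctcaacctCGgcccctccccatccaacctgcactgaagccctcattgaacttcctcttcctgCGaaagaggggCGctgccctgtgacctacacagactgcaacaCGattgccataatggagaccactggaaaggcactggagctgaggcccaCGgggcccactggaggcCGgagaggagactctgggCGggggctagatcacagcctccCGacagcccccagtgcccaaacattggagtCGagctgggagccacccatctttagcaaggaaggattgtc

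The 4 promoters differed in CpG content. The Hoxa5 window held 29 CpG, a number that 12.9% of the 32851 promoters in the table reached or passed. The Hoxa6 window held 26 (16.9% of all promoters), the Hoxb8 window 13 (37.9%) and the Hoxc4 window 9 (45.8%). The 19 HOX promoters ranged from 4 to 45 with a median of 20, against a median of 7 over all promoters. Hoxb was represented only by Hoxb1 and Hoxb8 and Hoxc only by Hoxc4, so this median describes mainly Hoxa and Hoxd. On either strand, TATAAA was found in 3 of the 19 and in 13.6% of all promoters, and TGATNNAT, a form of the HOX and PBX site, in 4 of the 19 and 8.85% of all. Hoxb8 was the one printed promoter to hold either motif, and it held both. These letters describe the windows only and are no measure of binding.

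Across the arrays, replicates correlated at Pearson r of 0.984 to 0.995. Medians over the 65956 transcript clusters were 4.54 to 4.65 on the 8 genotype arrays and 3.88 to 3.96 on the 4 drug arrays, so the sets look separately normalized and levels are compared only within a set. For background, 23 antigenomic control probe sets were read on each array and their 95th percentile taken (4.83 to 5.79, log2). The Ezh2 transcript was 9.10 and 9.44 in undifferentiated Ezh2-null arrays, against 11.57 and 11.65 in wild-type ones, a fall of 2.34 log2 units (limma adjusted p = 5.5e-05). In neutrophils Ezh2 was 8.74 and 9.02 under the Ezh2-null label, against 8.31 and 8.34 in wild type, and was not lower (difference 0.55, adjusted p = 0.0501), so those arrays are called neutrophils labelled Ezh2-null. From undifferentiated cells to neutrophils, Ezh2 changed by −3.28 in wild type (limma adjusted p = 1.23e-06). Under the Ezh2-null label it changed by −0.39 (limma adjusted p = 0.113). All 12 neutrophil markers lay above background in all 4 neutrophil groups. The 5 stromal and endothelial markers, which mark other cells of the marrow, lay under background in all 6 groups.

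Most HOX genes gave no signal above background. Of the 33 members, 26 lay at or under background on all 12 arrays, and no Hoxd gene rose above it on any array. The 7 genes above it on at least 1 array were Hoxa2, Hoxa5, Hoxa6, Hoxb3, Hoxb8, Hoxc4 and Hoxc10. Both arrays of a group were above background for Hoxb8 and Hoxc4 in neutrophils labelled Ezh2-null, for Hoxb8 alone in wild-type neutrophils, for Hoxa5, Hoxa6, Hoxc4 and Hoxc10 in undifferentiated Ezh2-null cells, for Hoxa5 and Hoxa6 in undifferentiated wild-type cells, and for Hoxb8 alone with GSK343 and with vehicle. That is 2, 1, 4, 2, 1 and 1 of 33 members, while 33.3%, 34.0%, 29.7%, 33.4%, 28.5% and 29.2% of all clusters passed the same criterion in those groups. A gene under background may still be transcribed at a level that the array does not resolve.

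**Figure D1:**
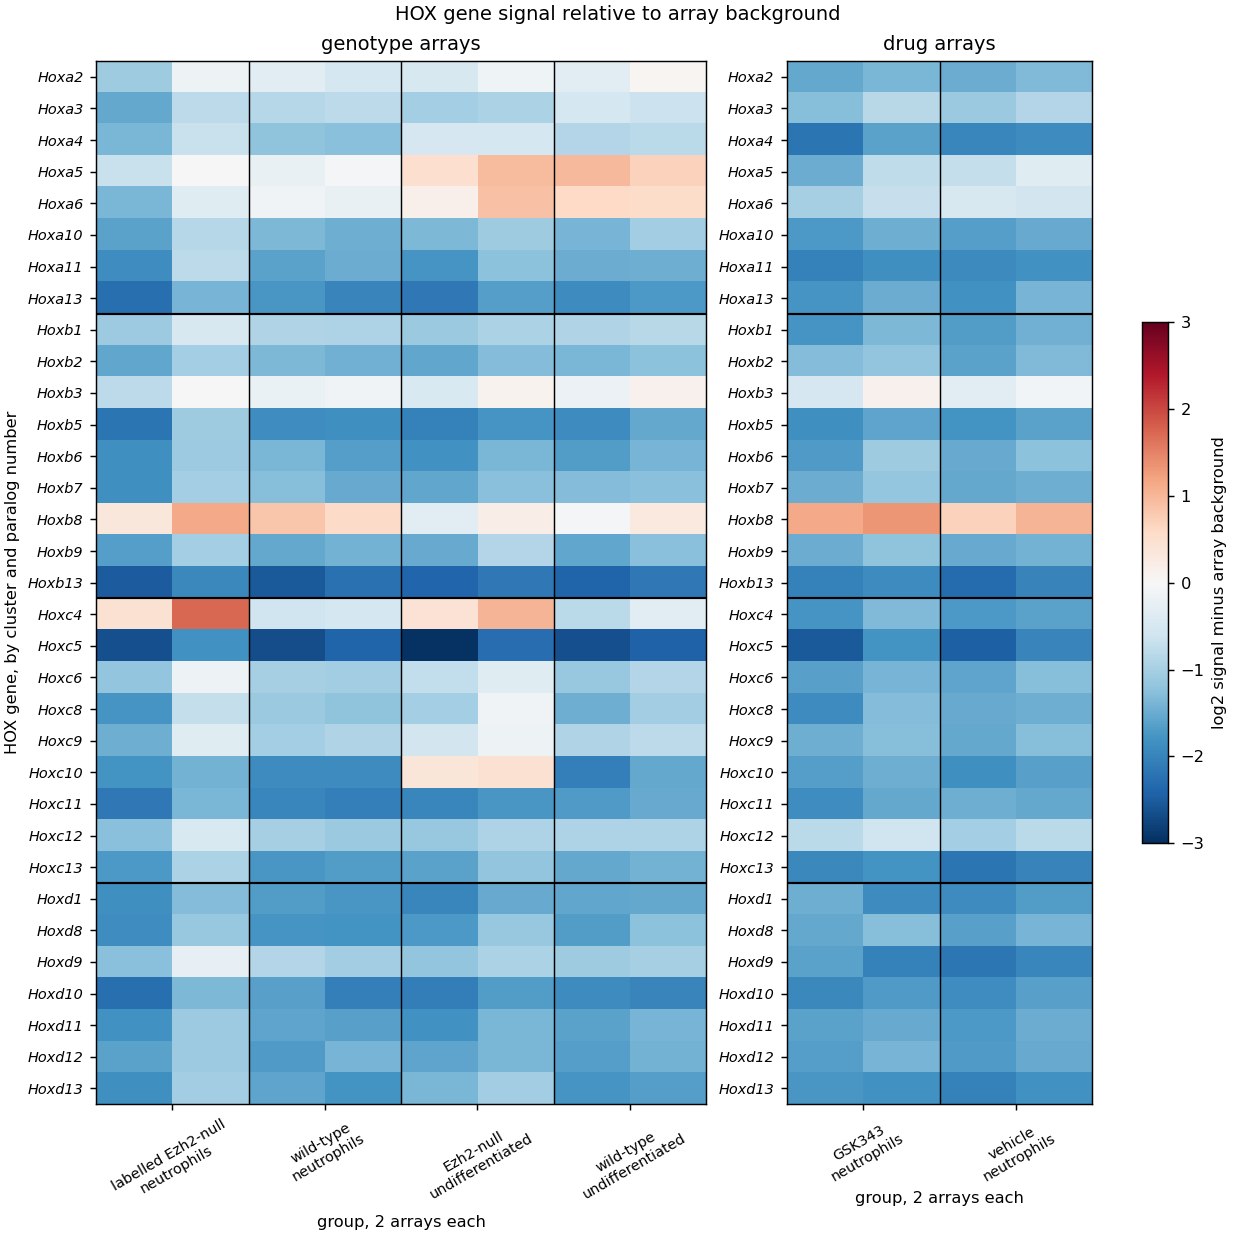
Log2 signal of each of the 33 HOX genes minus the background of that array, with 2 arrays side by side per group; red is above background and blue below. Hoxa5, Hoxa6, Hoxb8, Hoxc4 and Hoxc10 are the rows that reach red on both arrays of a group, and the 7 Hoxd rows are blue on all 12 arrays.

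The first comparison asked what loss of EZH2 did to HOX genes in undifferentiated cells. Hoxc10, Hoxc4 and Hoxc6 were higher in Ezh2-null cells, while no Hoxa, Hoxb or Hoxd gene passed the test. Of the 33 members, 3 rose and none fell (adjusted p under 0.05, limma with Benjamini-Hochberg adjustment over all clusters). Among all clusters 1.65% rose, 1.34% fell and 2.99% were called in either direction. All 3 members that rose were among the 9 Hoxc genes.

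Hoxc10, a posterior gene known for patterning the lumbar spinal cord and hindlimb region, had 6.16 and 5.80 in undifferentiated Ezh2-null arrays, against 3.46 and 3.84 in wild-type arrays (log2 signal). Both Ezh2-null arrays were above background and both wild-type arrays below it, with no overlap. The 5.80 of Ezh2-null array 2 was under the highest antigenomic control of that array (5.81) and its negative control median (6.02). The difference was 2.33 (SE 0.187, limma adjusted p = 0.000175), and because the wild-type signal lay under background the fold is given as at least 1.45. This and later "at least" folds rest on the antigenomic limit. At the negative control medians of the wild-type arrays, 6.08 and 6.00, the Hoxc10 bound does not hold. Hoxc4, which is expressed in blood progenitors and lymphoid cells, had 6.23 and 6.34 in Ezh2-null arrays, against 4.69 and 5.03 in wild-type arrays. The groups again did not overlap and lay on opposite sides of background. Hoxc4 rose by 1.42 (SE 0.174, limma adjusted p = 0.00216), at least 1.79-fold. Fitted on the 4 compared arrays alone, the Hoxc4 difference had an adjusted p of 0.0817.

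The central and posterior Hoxc genes between them had smaller differences and stayed under background. Hoxc6, which patterns the thoracic region, had 5.06 and 4.98 in Ezh2-null arrays, against 4.37 and 4.49 in wild-type arrays, a difference of 0.59 (SE 0.130, limma adjusted p = 0.0474). With all 4 arrays under background no fold is given, and the call was lost when any 1 of these 4 arrays was left out (adjusted p 0.0791 to 0.288). Hoxc8, another thoracic gene, had 4.77 and 5.24 in Ezh2-null arrays, against 4.04 and 4.32 in wild-type arrays. Hoxc9, a posterior thoracic gene, had 5.23 and 5.17 in Ezh2-null arrays, against 4.60 and 4.60 in wild-type arrays. Neither passed the test, with differences of 0.82 (limma adjusted p = 0.0569) and 0.60 (adjusted p = 0.0516), although the arrays of the groups did not overlap for either gene. Without Ezh2-null array 1, Hoxc8 did pass (1.06, adjusted p = 0.0200).

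By cluster, the median difference was 0.59 over the 9 Hoxc genes, 0.04 over the 8 Hoxa genes, −0.01 over the 9 Hoxb genes and 0.14 over the 7 Hoxd genes, against −0.01 over all clusters. The arrays did not overlap, with Ezh2-null higher, for 6 of 9 Hoxc genes, 1 of 8 Hoxa genes, 1 of 9 Hoxb genes and 3 of 7 Hoxd genes. Over all clusters this was so for 18% in that direction and for 19.5% in the other. The remaining Hoxc genes, Hoxc5, Hoxc11, Hoxc12 and Hoxc13, had differences between −0.12 and 0.20. The largest Hoxd difference was that of Hoxd13, the most posterior member, at 0.62 (limma adjusted p = 0.0802), with all arrays under background. Hoxa5 and Hoxa6, which were above background in both genotypes, differed by 0.01 (95% interval −0.38 to 0.39) and 0.05 (−0.30 to 0.40).

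In the same comparison, 1 of 12 noncoding genes of the HOX loci was called, against 2.99% of all clusters. The same share stands beside the counts of the other lists here, 2 of 11 flanking genes, 1 of 10 TALE cofactors and 2 of 22 activators. Hotairm1, a noncoding RNA transcribed beside the anterior end of the Hoxa cluster, rose, with 4.94 and 4.95 in Ezh2-null arrays, against 4.47 and 4.31 in wild-type arrays (difference 0.55, limma adjusted p = 0.0332), all under background. Of 11 genes that flank the clusters, 2 rose, Calcoco1 by 1.38 and Mtx2 by 0.81 (limma adjusted p = 0.00872 and 0.0182), which lie near Hoxc and Hoxd. Among 10 TALE cofactors, Pbx3 rose by 1.06 (adjusted p = 0.0023). Among 22 genes of MLL complexes and other HOX activators, Mllt1 fell by 1.87 and Mllt3 fell by 1.01, both members of the elongation machinery that fuses to MLL in leukaemia (limma adjusted p = 0.0167 and 0.00841). Some markers of several cell types were called in the same comparison, where 1.65% of all clusters rose and 1.34% fell. The summed signals of the neutrophil and erythroid lists overlapped between the genotypes. Of the stem cell markers 1 of 4, Hlf, rose by 2.79, and the summed linear signal of the 4 was 5762 to 9662 in Ezh2-null arrays and 1097 to 1205 in wild-type arrays, with 2 of the 4 under background in both genotypes. Of the progenitor markers 3 of 9 fell (summed linear signal 349880 to 367099 in Ezh2-null arrays and 483920 to 516782 in wild-type arrays), and of the monocyte markers 2 of 8 fell (521 to 530 in Ezh2-null and 6508 to 9367 in wild-type arrays). Of the neutrophil markers 2 of 12 rose and 2 fell (2829 to 7461 in Ezh2-null and 4861 to 8467 in wild-type arrays), and of the mast cell and basophil markers 1 of 10 rose and 1 fell (262360 to 329533 in Ezh2-null and 458468 to 489456 in wild-type arrays). Of the erythroid markers 1 of 8 rose (39847 to 53768 in Ezh2-null and 46828 to 49043 in wild-type arrays), and of the lymphoid markers 1 of 6 fell (193 to 619 in Ezh2-null and 1753 to 2005 in wild-type arrays). Their part in the HOX differences was not tested.

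The second comparison asked the same question in neutrophils. Hoxc4 was higher and Hoxa6 lower in neutrophils labelled Ezh2-null than in wild-type neutrophils, and Hoxc10 was under background in both. Of the 33 members 1 rose and 1 fell, where 6.75% of all clusters rose, 5.06% fell and 11.8% were called in either direction, so the share of HOX genes called was not above that of the array.

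Hoxc4 had 6.20 and 6.69 in neutrophils labelled Ezh2-null, against 4.90 and 4.94 in wild-type neutrophils. The labelled arrays were both above background and the wild-type arrays both below, without overlap. The difference was 1.52 (SE 0.174, limma adjusted p = 0.000576), at least 1.93-fold, and it was called under every alternative run for it. The negative control medians of the wild-type neutrophil arrays were 6.37 and 6.60, and at that limit the fold bound does not hold. Set beside the undifferentiated cells, the genotype difference of Hoxc4 changed by 0.10 between stages (SE 0.246, adjusted p = 0.935, 95% interval −0.46 to 0.65). Hoxa6, a central Hoxa gene of progenitors, had 4.36 and 4.60 in neutrophils labelled Ezh2-null, against 5.41 and 5.24 in wild-type neutrophils. The arrays did not overlap, yet all 4 lay under background, so no fold is given for the difference of −0.84 (SE 0.153, limma adjusted p = 0.00694). Without wild-type neutrophil array 1 this call was lost (−0.76, adjusted p = 0.0535).

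Hoxc10 had 3.95 and 3.57 in neutrophils labelled Ezh2-null, against 3.63 and 3.58 in wild-type neutrophils. All 4 values lay under background and the groups overlapped, with a difference of 0.15 (SE 0.187, limma adjusted p = 0.748). The change of genotype difference between stages, neutrophils minus undifferentiated cells, was −2.18 for Hoxc10 (SE 0.265, adjusted p = 0.00233). It was the 1 member of 33 called for that interaction, which was called higher in 2.77%, lower in 1.65% and in either direction in 4.41% of all clusters. Hoxa6 (−0.89), Hoxc8 (−1.04) and Hoxc9 (−0.69) had the next lowest adjusted p-values in limma, 0.0552, 0.0668 and 0.0894. Without undifferentiated Ezh2-null array 1, Hoxa6 and Hoxc8 passed as well (−1.03 and −1.28, adjusted p = 0.0363 and 0.0233).

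No other member was called in neutrophils. The median difference was 0.02 over the 33 genes and −0.03 over all clusters, and the 15 posterior genes lay between −0.11 and 0.24. The arrays did not overlap for 6 members higher and 7 lower in neutrophils labelled Ezh2-null, against 23.6% and 27.7% of all clusters. Hoxa3, an anterior gene of the pharyngeal region, had the next lowest adjusted p at 0.0725 (difference −0.48, under background on all 4 arrays).

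**Figure D2:**
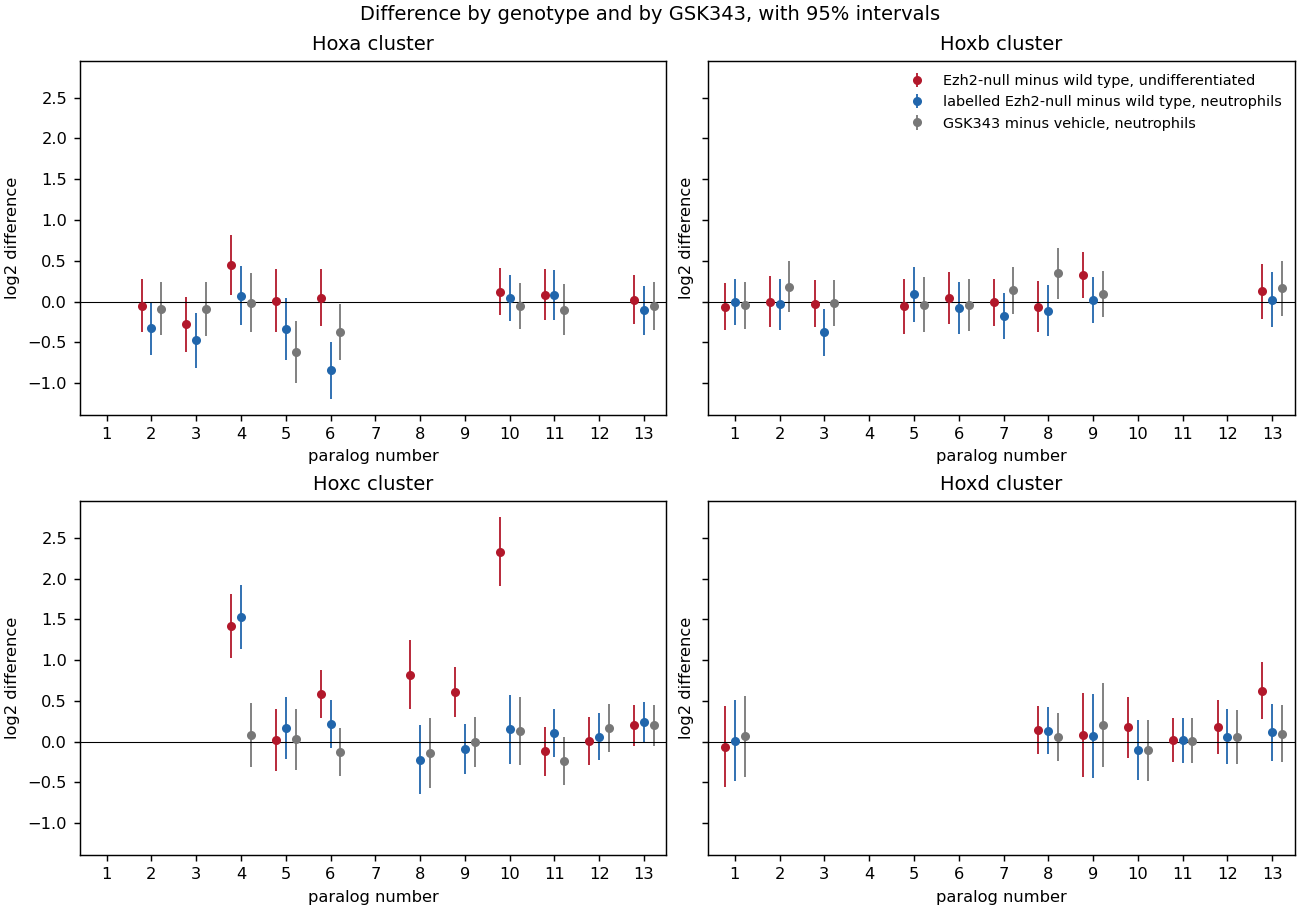
Log2 difference of each HOX gene by paralog number, 1 panel per cluster, for Ezh2-null minus wild type in undifferentiated cells, labelled Ezh2-null minus wild type in neutrophils, and GSK343 minus vehicle; bars are 95% intervals from limma. Hoxc4 stands at 1.42 and 1.52 in the genotype comparisons, and Hoxc10 at 2.33 in undifferentiated cells and 0.15 in neutrophils.

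Among genes that act with HOX proteins, 3 of 10 TALE cofactors and 5 of 22 activators were called in neutrophils, against 11.8% of all clusters. Pbx3 rose by 1.37, while Pbx2 and Pknox1 fell by 0.96 and 1.08 (limma adjusted p = 0.000213, 0.0319 and 0.0112). Of the 22 activator genes 4 rose and 1 fell: Psip1, which tethers MLL to chromatin, by 2.40, Mllt3 by 2.21, the H3K79 methyltransferase gene Dot1l by 1.79 and Npm1 by 1.69, against −0.95 for Aff1 (limma adjusted p from 4.38e-05 to 0.0131). The genotype difference changed between stages for Mllt3 (3.22), Psip1 (2.00), Dot1l (1.6), Npm1 (1.37), Pknox1 (−1.40) and the flanking gene Calcoco1 (−2.03), with limma adjusted p from 0.000111 to 0.0372. Of the 11 flanking genes Mtx2 rose by 1.30 and Skap2 fell by 0.88, and none of the 12 noncoding genes was called. Esr1, an estrogen receptor gene, had 5.37 and 5.75 in neutrophils labelled Ezh2-null, against 6.16 and 6.59 in wild-type neutrophils (difference −0.81, limma adjusted p = 0.0179). Of the labelled arrays 1 of 2 was above background, and both wild-type arrays were. Whether this row reads the receptor part of the transgene was not tested. Markers of other cell types moved in the same comparison. All 10 mast cell and basophil markers and all 8 erythroid markers rose in neutrophils labelled Ezh2-null, as did 4 of 9 progenitor, 1 of 3 eosinophil and 1 of 6 lymphoid markers, while 5 of 8 monocyte markers and 4 of 12 neutrophil markers fell. In neutrophils labelled Ezh2-null, against wild-type neutrophils, the summed linear signal of the progenitor list was 9641 to 14746 against 1657 to 1695. It was 684951 to 702854 against 4320 to 12782 for the mast cell list, 28997 to 29966 against 56258 to 135132 for the monocyte list and 1280050 to 1802850 against 1983830 to 2926090 for the neutrophil list. It was 187592 to 222227 against 254.9 to 256.8 for the erythroid list, of which 7 of 8 lay under background in wild-type neutrophils. The part of these cells in the Hoxc4 and Hoxa6 differences was not tested.

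The third comparison, GSK343 against vehicle, asked whether an EZH2 inhibitor given to wild-type cells moved the same genes. No HOX gene was called by limma (lowest adjusted p = 0.497), and 3 had an unadjusted p under 0.05. Over all clusters 0.00152% rose, which is 1 cluster, 0% fell, and 6.01% had an unadjusted p under 0.05. That 1 cluster was among the 10 mast cell and basophil markers. No HOX gene was called under any alternative run for this comparison.

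The Hoxc genes that were higher with the Ezh2-null label did not pass the test with the inhibitor. Hoxc4 had 3.44 and 3.50 with GSK343, against 3.42 and 3.36 with vehicle (difference 0.08, 95% interval −0.32 to 0.47). Hoxc10 had 3.54 and 3.36 with GSK343, against 3.31 and 3.33 with vehicle (0.13, −0.29 to 0.55). All 8 values lay under background, so these intervals bound the signal and not the transcript. Hoxa5 had 3.71 and 4.07 with GSK343, against 4.43 and 4.59 with vehicle, all under background (−0.62, −1.0 to −0.23, limma adjusted p = 0.497). Hoxa6 had 4.20 and 4.15 with GSK343, against 4.67 and 4.42 with vehicle, also all under background (−0.37, adjusted p = 0.799). Hoxb8 had 6.34 and 6.15 with GSK343, against 5.83 and 5.97 with vehicle, all above background (0.35, limma adjusted p = 0.779). The 5.83 of vehicle array 1 was under the highest antigenomic control of that array (6.05). For these 3 genes the arrays did not overlap, but the differences did not pass the test over all clusters. Of the 33 members, the arrays did not overlap for 7 higher and 5 lower with GSK343, against 19.5% and 18.6% of all clusters. The 95% intervals of all 33 members lay between −1.0 and 0.72. No TALE cofactor, activator, noncoding or flanking gene was called, with 1 gene of each list at an unadjusted p under 0.05. With GSK343 the arrays lay wholly higher for 9 of 9 progenitor markers, against 19.5% of all clusters. They lay wholly lower for 9 of 12 neutrophil markers, against 18.6%. Summed linear signal of the mast cell list was 34300 to 35505 with GSK343, against 12304 to 12690 with vehicle. For the eosinophil list it was 17989 to 23484, against 1232 to 2204. Their part in the HOX values was not tested.

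The next comparisons followed differentiation, setting neutrophils against the dividing progenitors. Hoxa5 and Hoxa6 fell in cells labelled Ezh2-null and in wild-type cells, and the Hoxb8 signal rose in both. In cells labelled Ezh2-null, 6 other members fell too. These comparisons share no arrays with each other, but each shares its arrays with the genotype comparisons, so a high value in undifferentiated Ezh2-null cells enters both.

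In cells labelled Ezh2-null 1 of the 33 members rose and 8 fell, where 11.7% of all clusters rose, 10.7% fell and 22.4% were called in either direction. In wild-type cells 1 rose and 2 fell, where 13% of all clusters rose, 12.2% fell and 25.3% were called in either direction. Left-out arrays lowered these counts: 5 members were called under the Ezh2-null label, against 9, without undifferentiated array 1 or without either neutrophil array, and 1 was called in wild-type cells, against 3, without undifferentiated array 1. At an unadjusted p under 0.05 cells labelled Ezh2-null had 13 members, against 32.2% of all clusters, and wild-type cells had 4, against 33.4%. The median over HOX genes was −0.14 in cells labelled Ezh2-null and −0.05 in wild-type cells, against 0.01 and 0.03 over all clusters. In cells labelled Ezh2-null the neutrophil arrays lay wholly below the undifferentiated ones for 20 members and wholly above for 2, against 26.3% and 28.9% of all clusters. In wild-type cells they lay below for 9 members and above for 1, against 26.9% and 33.2% of all clusters.

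Hoxa5, which promotes myeloid over erythroid fate in progenitors, had 5.07 and 4.98 in neutrophils labelled Ezh2-null, against 6.29 and 6.29 in undifferentiated Ezh2-null cells. The undifferentiated arrays were both above background and 1 of the 2 neutrophil arrays was. It fell by 1.27 (SE 0.170, limma adjusted p = 0.000667), with no fold given because 1 neutrophil array lay under background. In wild-type cells it had 5.29 and 5.43 in neutrophils, against 6.49 and 6.08 in undifferentiated cells, and fell by 0.93 (SE 0.170, limma adjusted p = 0.00296), at least 1.73-fold. Hoxa6 had 4.36 and 4.60 in neutrophils labelled Ezh2-null, against 5.93 and 6.21 in undifferentiated Ezh2-null cells, and fell by 1.59 (SE 0.153, limma adjusted p = 9.72e-05), at least 1.64-fold. In wild-type cells Hoxa6 had 5.41 and 5.24 in neutrophils, against 6.11 and 5.93 in undifferentiated cells, and fell by 0.70 (SE 0.153, limma adjusted p = 0.00805), at least 1.44-fold. Both genes were thus above background on every undifferentiated array, and the stages did not overlap in either genotype. On undifferentiated wild-type array 2, however, the 5.93 of Hoxa6 was under the negative control median (6.00). On undifferentiated Ezh2-null array 1 its 5.93 was under the highest antigenomic control (6.08). The negative control medians were 6.15 and 6.14 in neutrophils labelled Ezh2-null and 6.37 and 6.60 in wild-type neutrophils. At that limit the "at least" folds of both genes do not hold. The Hoxa6 call in wild-type cells was lost without undifferentiated array 1 (−0.61, adjusted p = 0.0644) or without neutrophil array 2 (−0.62, adjusted p = 0.0577). The fall was not shown to differ between genotypes for Hoxa5 (interaction −0.34, adjusted p = 0.613) or Hoxa6 (−0.89, adjusted p = 0.0552).

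Hoxb8 needs a separate reading, since every cell carried a HOXB8 fusion transgene. The deposited table gives 1 value for the gene, so endogenous and transgene RNA cannot be told apart, and the labels do not state the species or promoter of the transgene. The signal was 6.07 and 6.10 in neutrophils labelled Ezh2-null, against 5.48 and 5.54 in undifferentiated Ezh2-null cells. It was 6.35 and 6.06 in wild-type neutrophils, against 5.48 and 5.66 in undifferentiated wild-type cells. All 4 neutrophil arrays were above background, as was 1 of the 2 undifferentiated arrays of each genotype. The 4 neutrophil values were nevertheless under the negative control medians of their arrays. These medians were 6.15 and 6.14 under the Ezh2-null label and 6.37 and 6.60 in wild type. Hoxb8 rose by 0.58 (SE 0.139, limma adjusted p = 0.0149) in cells labelled Ezh2-null and by 0.63 (SE 0.139, limma adjusted p = 0.00790) in wild-type cells. The rise in wild-type cells was not called without undifferentiated array 1 (0.54, adjusted p = 0.0655), without neutrophil array 1 (0.49, adjusted p = 0.0637) or after quantile normalization (0.50, adjusted p = 0.0610). In cells labelled Ezh2-null the Hoxb8 call was lost under 5 of 12 alternatives. These were the fit on the compared arrays alone, quantile normalization (0.37, adjusted p = 0.166) and leaving out undifferentiated array 1 or either neutrophil array (0.55 to 0.60, adjusted p 0.0621 to 0.0732). Esr1 was not called in either differentiation (−0.24 in cells labelled Ezh2-null and 0.06 in wild-type cells).

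Hoxc10 had 3.95 and 3.57 in neutrophils labelled Ezh2-null, against 6.16 and 5.80 in undifferentiated Ezh2-null cells, and fell by 2.22 (SE 0.187, limma adjusted p = 4.38e-05), at least 1.54-fold. In wild-type cells it had 3.63 and 3.58 in neutrophils, against 3.46 and 3.84 in undifferentiated cells, all under background. So undifferentiated Ezh2-null cells were the 1 group of the 6 with Hoxc10 above background on both arrays, and its 2 arrays carry both the rise by genotype and the fall on differentiation. Hoxc4 was above background at both stages, with 6.20 and 6.69 in neutrophils labelled Ezh2-null, against 6.23 and 6.34 in undifferentiated Ezh2-null cells (difference 0.16, 95% interval −0.23 to 0.55, limma adjusted p = 0.621).

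**Figure D3:**
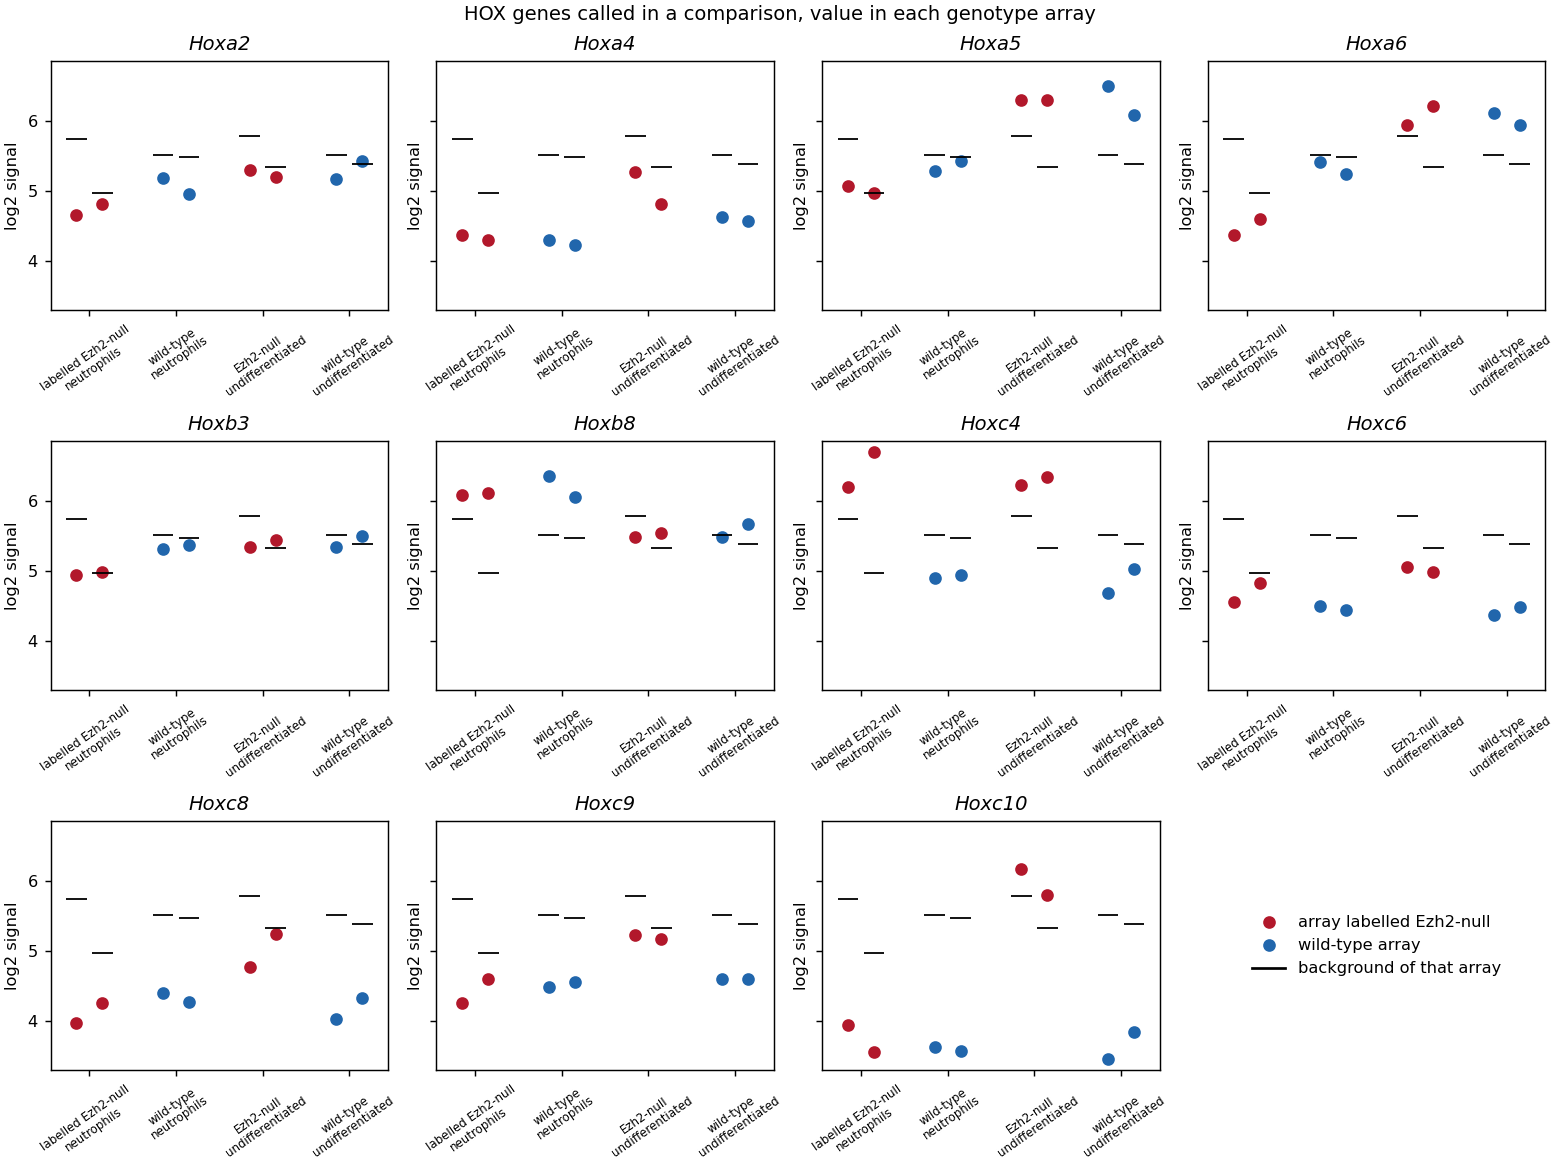
Log2 signal on each of the 8 genotype arrays for the 11 HOX genes called in at least 1 comparison, with red for arrays labelled Ezh2-null and blue for wild type; the black bar at each point is the background of that array. Hoxc4 is above its bar on all 4 arrays labelled Ezh2-null, and Hoxc10 on the 2 undifferentiated ones.

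The other 5 members that fell in cells labelled Ezh2-null had low signals throughout. Hoxc8 had 3.98 and 4.26 in neutrophils labelled Ezh2-null, against 4.77 and 5.24 in undifferentiated Ezh2-null cells (−0.89, SE 0.189, limma adjusted p = 0.00850). Hoxc9 had 4.26 and 4.60 in neutrophils labelled Ezh2-null, against 5.23 and 5.17 in undifferentiated Ezh2-null cells (−0.77, SE 0.135, limma adjusted p = 0.00310). Hoxa4, a gene of the cervical region, had 4.38 and 4.29 in neutrophils labelled Ezh2-null, against 5.27 and 4.81 in undifferentiated Ezh2-null cells (−0.71, SE 0.160, limma adjusted p = 0.0114). In these 3 genes the stages did not overlap and all 4 arrays lay under background. Hoxa2, which patterns the second pharyngeal arch, had 4.66 and 4.81 in neutrophils labelled Ezh2-null, against 5.30 and 5.20 in undifferentiated Ezh2-null cells, also under background (−0.51, SE 0.143, limma adjusted p = 0.0305). Hoxb3, a hindbrain gene that is also expressed in blood stem cells, had 4.94 and 4.99 in neutrophils labelled Ezh2-null, against 5.33 and 5.44 in undifferentiated Ezh2-null cells (−0.42, SE 0.127, limma adjusted p = 0.0410). For Hoxb3, 1 of the 2 arrays at each stage was above background, and no fold is given. Hoxa2 and Hoxb3 lost their calls when any 1 of these 4 arrays was left out (adjusted p 0.0520 to 0.164). Hoxa4 lost its call without undifferentiated array 1 or neutrophil array 2 (0.0612 and 0.0670), and Hoxc8 without neutrophil array 1 (0.0669). Fitted on the compared arrays alone, none of these genes, Hoxc9 included, was called. In wild-type cells the same 5 genes were not called, and none of the 5 passed the interaction test.

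The same genes were then read in wild-type cells. Hoxc8 had 4.40 and 4.28 in wild-type neutrophils, against 4.04 and 4.32 in undifferentiated wild-type cells. Hoxc9 had 4.48 and 4.56 in wild-type neutrophils, against 4.60 and 4.60 in undifferentiated wild-type cells, both neutrophil arrays being lower. Hoxa4 had 4.30 and 4.22 in wild-type neutrophils, against 4.63 and 4.56 in undifferentiated wild-type cells. The stages did not overlap for Hoxa4 and Hoxc9 and did for Hoxc8. Hoxa2 had 5.18 and 4.95 in wild-type neutrophils, against 5.17 and 5.43 in undifferentiated wild-type cells. Hoxb3 had 5.31 and 5.36 in wild-type neutrophils, against 5.33 and 5.50 in undifferentiated wild-type cells. The stages overlapped for both genes. By region, 2 of 6 anterior, 4 of 12 central and 2 of 15 posterior members fell in cells labelled Ezh2-null, against 10.7% of all clusters. In wild-type cells both falls were central, against 12.2% of all clusters.

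**Figure D4:**
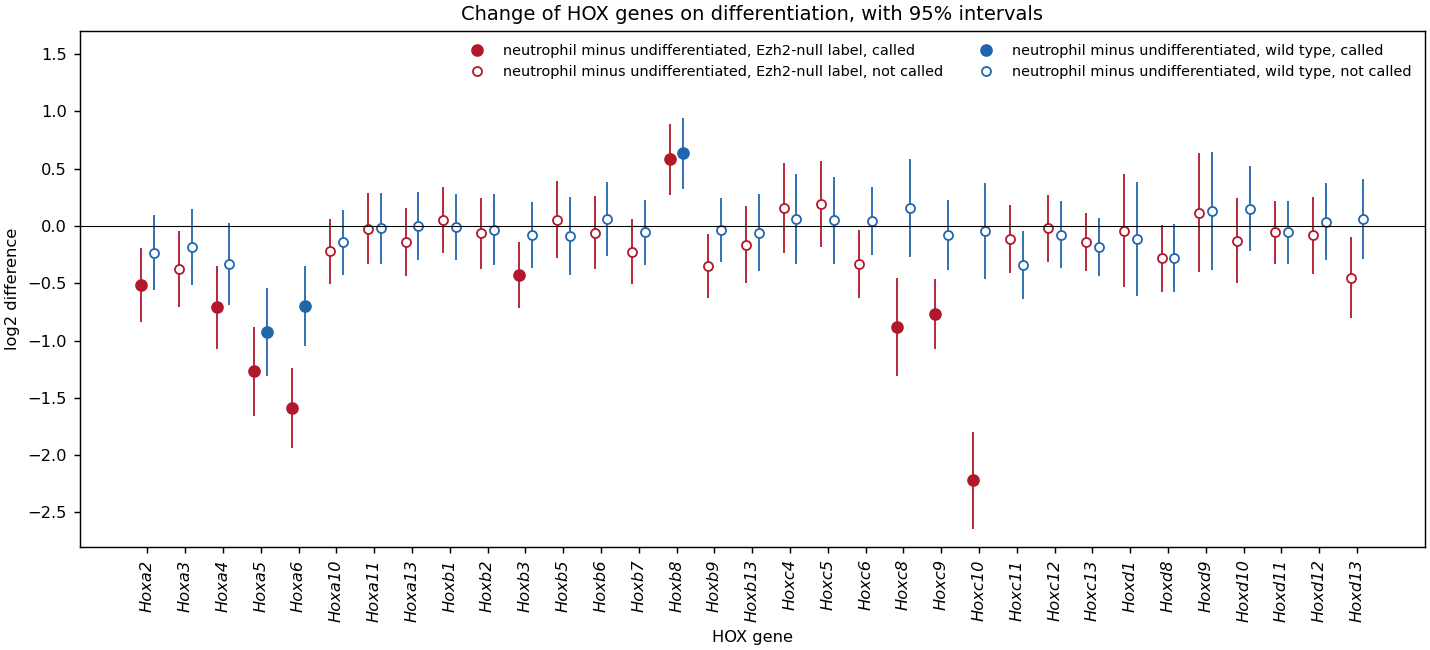
Log2 difference of neutrophils minus undifferentiated cells for each HOX gene in cells labelled Ezh2-null (red) and in wild-type cells (blue); filled points were called and bars are 95% intervals from limma. Hoxa5, Hoxa6 and Hoxb8 are filled in both genotypes, and Hoxc10 reaches −2.22 in cells labelled Ezh2-null.

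Partners of HOX proteins were followed over the same step. Meis1, the MEIS cofactor of HOX proteins in blood progenitors, had 5.76 and 5.50 in neutrophils labelled Ezh2-null, against 9.10 and 9.65 in undifferentiated Ezh2-null cells (fell by 3.74, 13.4-fold, limma adjusted p = 3.55e-06). In wild-type cells it had 4.86 and 5.11 in neutrophils, against 8.64 and 8.89 in undifferentiated cells, and fell by 3.78, at least 9.69-fold (limma adjusted p = 2.04e-06). In cells labelled Ezh2-null none of the 10 TALE cofactors rose and 5 fell, the others being Tgif2 (−1.15), Pbx3 (−1.01), Pknox1 (−0.92) and Pbx4 (−0.83). In wild-type cells Pbx2 rose by 1.10 and 4 fell, the others being Pbx3 (−1.32), Pbx4 (−1.25) and Tgif2 (−1.02). Over all clusters 11.7% rose and 10.7% fell under the Ezh2-null label, and 13% rose and 12.2% fell in wild-type cells.

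Of the 22 activator genes, 2 rose and 8 fell in cells labelled Ezh2-null, where 22.4% of all clusters were called. The 8 with the largest differences were Mllt1 (−1.90), Men1 (−1.61), Npm1 (−1.30), Dpy30 (−1.29), Ash2l (−1.16), Aff1 (1.02), Psip1 (−0.91) and Wdr5 (−0.86). In wild-type cells 4 rose and 10 fell, where 25.3% of all clusters were called, led by Mllt3 (−3.65), Mllt1 (−3.29), Psip1 (−2.92), Npm1 (−2.66), the H3K27 demethylase gene Kdm6b (2.33), Dpy30 (−2.13), Ash2l (−1.65) and Dot1l (−1.56). Men1, Wdr5, Ash2l and Dpy30 encode subunits of MLL complexes. Of the 11 flanking genes, 1 rose and 3 fell in cells labelled Ezh2-null, against the same 22.4% called (Skap2 1.26, Hibadh −1.48, Mtx2 −1.02 and Calcoco2 −0.42, the last under background). In wild-type cells 2 rose and 2 fell, against 25.3% called (Skap2 1.79, Calcoco1 1.57, Mtx2 −1.50 and Hibadh −0.80). None of the 12 noncoding genes was called in either. Progenitor markers moved with these results: 7 of 9 fell in cells labelled Ezh2-null and 9 of 9 fell in wild-type cells. In cells labelled Ezh2-null, 8 of 10 mast cell and basophil markers and 8 of 8 erythroid markers rose as well. In wild-type cells 4 of 10 mast cell and basophil markers and 1 of 8 erythroid markers fell, and none of these rose. Monocyte markers rose in both, 6 of 8 each. Their part in the HOX changes was not tested.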

How the data were processed

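Total RNA (250 ng) was hybridised to 12 arrays, per the labels' protocols. The authors deposited log2 signals per transcript cluster; the submitters' processing notes name Affymetrix Expression Console and Transcriptome Analysis Console. For the summarisation, background correction, versions and genome build: not given in the sources used here. Of 72688 entries, 6732 control probe sets were left out and 65956 clusters tested; 0 value columns were unmapped. Row names came from the platform annotation. All 12 arrays were fitted with limma 3.58.1 under R 4.3.3 (1 mean for each of 6 groups, moderated by eBayes, 6 residual and 3.06 prior degrees of freedom), adjusted by Benjamini-Hochberg over all clusters and called at 0.05. The fit was tested on simulated data. "At least" folds set the dimmer group at the higher of signal and background on each array. They rest on the antigenomic limit, and the higher negative control medians of most arrays would lower or remove them. Standard errors come from this fit, and 2 arrays per group limit the precision.

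HOX genes called in any comparison, or above background on both arrays of a group, were given by array; the other lists named called genes, up to 8 each by size. The members and lists were chosen with earlier results of these data known. Same-numbered arrays were not paired: deviations from group means correlated between −0.11 and 0.19 on the genotype arrays and at −0.19 on the drug arrays. Alternatives changed the normalization, filter, fitted samples, block, variance trend, background limit and arrays.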

Additional observations from a re-analysis of the deposited data

Results flagged for a closer look

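The genotype difference of Hoxc10 differed between stages by a test of that difference. Neutrophils labelled Ezh2-null minus wild-type neutrophils gave 0.15, and undifferentiated Ezh2-null minus wild-type cells gave 2.33, so the change was −2.18 (SE 0.265, limma adjusted p = 0.00233). It was called under every alternative run for it.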

How the results depend on the processing

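Over 28 pairs of a HOX gene and a comparison, 338 alternative values were computed: 276 kept the direction and side of the threshold, 40 were no longer called, 22 became called and 0 turned direction. Hoxc10 in undifferentiated cells, in differentiation under the Ezh2-null label and by stage, Hoxc4 in neutrophils, Hoxa5 in both differentiations and Hoxa6 under the Ezh2-null label were called under each. Where results below changed, the cause was not tested. In undifferentiated cells 3 genes were called by genotype. There was 1 when fitted on the compared arrays alone, 6 after quantile normalization, 5 with an eBayes trend and 6 when only clusters with 1 symbol were tested. Under the Ezh2-null label 9 genes were called on differentiation, against 3 on the compared arrays and 4 after a filter on dim clusters, which tested fewer members. By stage there was 1, against 2 after quantile normalization and 4 over clusters with 1 symbol. Leaving out 1 array gave 2 to 3 genes for genotype in undifferentiated cells, 1 to 2 in neutrophils, 0 to 0 for GSK343, 1 to 3 for differentiation of wild-type cells, 5 to 8 under the Ezh2-null label and 1 to 3 by stage.

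Under a replicate block, 2, 2, 0, 3, 8 and 1 genes were called in that order of comparisons; Hoxc6 in undifferentiated cells (adjusted p = 0.119) and Hoxa2 on differentiation under the Ezh2-null label (0.0616) were lost, and no other call changed. Same-numbered drug arrays correlated at −0.19, so the crossed pairing was added after seeing the data, and it called 0 HOX genes.

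The count above background depends on the limit, which differs between the control types. With the median of the 5222 negative controls it was 1 in neutrophils labelled Ezh2-null, 0 in wild-type neutrophils and 1 in undifferentiated wild-type cells. With the highest antigenomic control it was 2 in undifferentiated Ezh2-null cells and 0 with vehicle. Hoxb8 dropped out of both genotype neutrophil groups under the negative control limit, and of the vehicle group under the highest antigenomic control. Leaving out 1 array gave 2 to 4 in neutrophils labelled Ezh2-null, 1 to 1 in wild-type neutrophils, 4 to 6 in undifferentiated Ezh2-null cells, 2 to 5 in undifferentiated wild-type cells, 1 to 2 with GSK343 and 1 to 1 with vehicle.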
